A study of Mus musculus with 10 samples.

Results

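The genes described here, Snap25, Stx1a, Vamp2, Vamp1, Cplx1, Cplx2, Unc13a and Rims1, encode proteins that dock, prime and fuse synaptic vesicles at the presynaptic active zone. They were chosen by symbol, after Ensembl identifiers had been matched to symbols, and are 8 of the 48709 genes in the count tables. Their RNA was measured by sequencing of polyadenylated RNA from primary cultures of mouse hippocampal neurons, in 10 libraries. Cultures took up lipid nanoparticles at day 10 in vitro and RNA was isolated at day 12, after 48 h. The cargo was an antisense inhibitor of miR-409-5p in 4 libraries (anti-miR-409-5p), one of miR-501-3p in 4 libraries (anti-miR-501-3p) and scramble RNA in 2 libraries (control). Control cultures thus carried nanoparticles and RNA as well, and the strain and age of the donor animals are not given in the sources used here. The series addresses, by its title, neuronal homeostasis after loss of both microRNAs, which it names as induced by exercise.

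Neurotransmitter release depends on SNARE proteins, which zip together across the vesicle and plasma membranes and so pull them into contact. Synaptobrevin, encoded by Vamp2 or Vamp1, sits on the vesicle, while syntaxin-1A, encoded by Stx1a, and SNAP-25, encoded by Snap25, sit on the plasma membrane. Complexins bind the assembled SNARE bundle and hold it ready for the calcium signal, Munc13-1, encoded by Unc13a, opens syntaxin during priming, and RIM1, encoded by Rims1, tethers vesicles and calcium channels at the active zone. MicroRNAs pair through their seed, bases 2 to 8 from the 5′ end, with sites in the 3′ UTR of messenger RNAs and lower their stability or translation.

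The mature sequences of both inhibited microRNAs are shown because a site for either seed can be looked for in each release gene. They are from RefSeq, build GRCm38.p6, at chr12:109743172-109743194 on the plus strand for miR-409-5p and at chrX:7241270-7241291 on the minus strand for miR-501-3p. Capitals mark the seed, and the pair share no seed.
mmu-miR-409-5p: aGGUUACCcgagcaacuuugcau
mmu-miR-501-3p: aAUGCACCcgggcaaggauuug
Within the longest 3′ UTR annotated for a gene, the matches searched on the transcript strand were GGTAACC and GTAACCA for miR-409-5p and GGTGCAT and GTGCATA for miR-501-3p. Vamp2 held 1 match for miR-409-5p at UTR positions 1712 to 1718, the last bases of a UTR of 1718 bases. Cplx2 held 1 match for miR-501-3p at UTR positions 1577 to 1583 of 4208. Both were of the second form searched for each microRNA. That form pairs with all of the seed but its last base and ends in an A, while the first pairs with the whole seed. The counts of UTRs below take either form. The sites lie at chr11:69092368-69092384 and chr13:54381276-54381302 of mm10, flanks included, both on the plus strand, and capitals mark the match.
Vamp2 site for miR-409-5p: cgtgtaatgaGTAACCA
Cplx2 site for miR-501-3p: gatgtgcctcGTGCATAtgtgtttgtg
A miR-409-5p match stood in 309 of 2950 UTRs within 25% of the length of Vamp2's (10.5%), and a miR-501-3p match in 475 of 1764 UTRs of a length like that of Cplx2 (26.9%). Over all 14231 tested genes with a 3′ UTR the shares were 10.5% and 13.6%. The other 6 genes held neither match in these windows, and a match is a description of letters only.

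All 8 genes passed the filter on low counts, which kept 16884 genes. Library totals ran from 22254788 to 32096808 counts, and a library held between 867 and 1210 counts of Vamp1, the lowest of the 8, and between 35890 and 51432 of Cplx2, the highest. Levels are given in CPM, counts scaled to the size of the library, with edgeR's TMM factors. Summed over 6 pan-neuronal markers, CPM ran from 4090 to 4380 under anti-miR-409-5p, from 4020 to 4350 under anti-miR-501-3p and from 3900 to 3950 in control. Summed astrocyte markers ran from 2290 to 2380, from 2200 to 2300 and from 2290 to 2320 CPM in the same groups, so astrocyte markers were present in all libraries. Excitatory neuron markers summed to 3530 to 3610, 3490 to 3680 and 3710 to 3790 CPM, the control libraries being highest, and inhibitory neuron markers to 997 to 1020, 959 to 997 and 991 to 992 CPM. Oligodendrocyte lineage markers summed to 412 to 511, 347 to 489 and 450 to 622 CPM, endothelial and fibroblast markers to 185 to 249, 232 to 294 and 208 to 300 CPM, with Cldn5 and Pecam1 under 1 CPM, and progenitor markers to 213 to 255, 171 to 232 and 186 to 252 CPM. Microglia markers summed to 13.6 to 15.5, 14.6 to 18.1 and 15.3 to 16 CPM, with Cx3cr1, P2ry12 and C1qa under 1 CPM. No listed marker was at 0 in every library, and the part of cell makeup in the results below was not tested.

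Per length of exon, the complexins and Vamp2 were the most abundant of the 8 messages and Vamp1 the least. Cplx2 stood at 328.5 ± 2.67 CPM per kb under anti-miR-409-5p, 334.5 ± 5.35 under anti-miR-501-3p (SD, n = 4 each) and 346.7 ± 6.56 in control (SD, n = 2). Vamp2, Cplx1, Snap25, Stx1a, Unc13a, Rims1 and Vamp1 followed in this order in all 3 groups. Vamp1, the synaptobrevin of spinal and brainstem synapses above all, stood at 3.79 ± 0.162, 3.91 ± 0.182 and 3.72 ± 0.0361 CPM per kb in these groups. Neighbours in the order did not overlap between libraries in any group, except Vamp2 and Cplx1 in control, where Vamp2 ranged from 275.5 to 288.6 and Cplx1 from 278.2 to 278.3 CPM per kb. The order of the first pair depends on the length used: per kb of the longest transcript, Vamp2 stood at 483.6, 516.6 and 487.2 CPM, above Cplx2 at 328.5, 334.5 and 346.7 CPM.

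**Figure D1:**
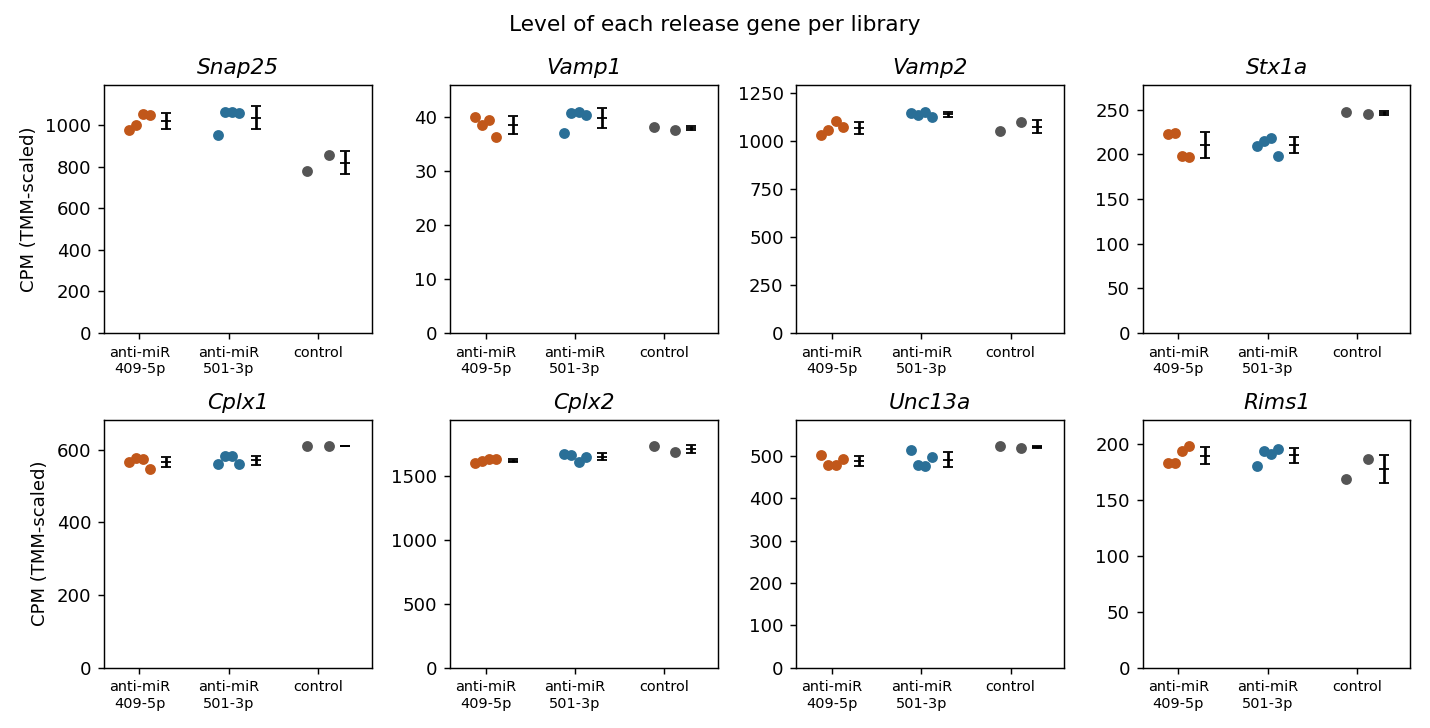
CPM of each release gene (vertical axes, from 0) in each library (points), with group means and SD (bars) for anti-miR-409-5p (n = 4), anti-miR-501-3p (n = 4) and control (n = 2). Snap25 lies higher in all 8 anti-miR libraries (952 to 1065 CPM) than in control (779 and 857 CPM), and Stx1a lies lower (197 to 223 CPM) than in control (245 and 248 CPM).

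Against control, Snap25 rose and Stx1a and Cplx1 fell under each anti-miR, and the other 5 genes did not pass the test. The test was edgeR's quasi-likelihood test with a Benjamini-Hochberg adjusted p under 0.05 over all tested genes. Thus 3 of 8 genes were called in each comparison, against 27.8% of all tested genes under anti-miR-409-5p (15.6% higher, 12.2% lower) and 33.0% under anti-miR-501-3p (17.6% higher, 15.4% lower), so the share among the release genes was near that of all genes. Both comparisons use the same 2 control libraries. The median log2 fold change of the 8 genes was -0.044 under anti-miR-409-5p and 0.0095 under anti-miR-501-3p, beside -0.012 and -0.012 over all tested genes.

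Other scalings moved the balance of the calls. With TMM, anti-miR-409-5p gave 2634 genes called higher and 2062 called lower, and anti-miR-501-3p gave 2974 and 2605. With DESeq2's size factors the splits were 2737 higher and 1866 lower for anti-miR-409-5p and 3040 and 2444 for anti-miR-501-3p. That scaling called 3 of 8 release genes under anti-miR-409-5p and 2 of 8 under anti-miR-501-3p. With upper-quartile scaling the splits were 2233 higher and 3074 lower for anti-miR-409-5p and 2540 and 3607 for anti-miR-501-3p. With total-count scaling they were 2193 and 3209, and 2452 and 3778. Under upper-quartile and total-count scaling, Cplx2 and Unc13a also passed as lower in each comparison, which made 5 of 8 genes called. A fit with the replicate number as a block also called 5 of 8. It added Cplx2 and Unc13a as lower under anti-miR-409-5p, and Vamp2 as higher and Unc13a as lower under anti-miR-501-3p. Of all 16884 tested genes, that fit called 4886 under anti-miR-409-5p and 5729 under anti-miR-501-3p. With 1 surrogate variable in the fit, Snap25 alone passed in each comparison, where 936 and 692 of all tested genes did.

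Snap25, the plasma membrane SNARE that gives a pair of helices to the bundle, showed the largest change of the 8 genes. The gene lies at chr2:136713453-136782428 on the plus strand (mm10). It had 975, 1002, 1052 and 1049 CPM in the anti-miR-409-5p libraries, 952, 1064, 1065 and 1057 CPM in the anti-miR-501-3p libraries, and 779 and 857 CPM in control. Every anti-miR library lay above both control libraries. The log2 fold change was 0.32 ± 0.05 (SE, adjusted p = 0.000375) under anti-miR-409-5p and 0.34 ± 0.05 (adjusted p = 0.000143) under anti-miR-501-3p, a level 1.246-fold and 1.264-fold that of control. The rise passed without any single library, at adjusted p of at most 0.0156 under anti-miR-409-5p and 0.00718 under anti-miR-501-3p. It turned to -0.084 (adjusted p = 0.0835) under anti-miR-409-5p and -0.121 (adjusted p = 0.00696) under anti-miR-501-3p in a fit without the GC and length trend of each library, described with the GC content of the 8 genes.

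Stx1a, at chr5:135023482-135051100 on the plus strand, went the other way. It had 223, 223, 198 and 197 CPM under anti-miR-409-5p, 209, 215, 218 and 198 CPM under anti-miR-501-3p, and 248 and 245 CPM in control. Again the anti-miR and control libraries did not overlap. The log2 fold change was -0.23 ± 0.053 under each anti-miR, with adjusted p = 0.00512 for anti-miR-409-5p and 0.00367 for anti-miR-501-3p. In bulk RNA, fewer cells of a type and less RNA per cell cannot be told apart. Without control library 1 the call ended in both comparisons, at adjusted p = 0.0932 and 0.0736.

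Vamp2, the main synaptobrevin of forebrain synapses, lies at chr11:69088490-69092384 on the plus strand and carries the miR-409-5p match printed above. It had 1029, 1058, 1106 and 1073 CPM under anti-miR-409-5p, 1146, 1136, 1153 and 1122 CPM under anti-miR-501-3p, and 1050 and 1099 CPM in control. The anti-miR-409-5p libraries lay around the controls, while the 4 anti-miR-501-3p libraries lay above them. The log2 fold change was -0.011 ± 0.035 (adjusted p = 0.853) under anti-miR-409-5p and 0.085 ± 0.035 (adjusted p = 0.0729) under anti-miR-501-3p. The second value passed with the replicate block (adjusted p = 0.0359) and without anti-miR-409-5p library 1 (adjusted p = 0.0471).

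Vamp1, at chr6:125215551-125245964 on the plus strand, did not differ between groups beyond its spread. It had 40.0, 38.4, 39.4 and 36.2 CPM under anti-miR-409-5p, 37.0, 40.6, 41.0 and 40.4 CPM under anti-miR-501-3p, and 38.1 and 37.6 CPM in control. The groups overlapped, and the 95% intervals of the log2 fold change ran from -0.092 to 0.138 under anti-miR-409-5p and from -0.044 to 0.185 under anti-miR-501-3p. The longest coding sequences of Vamp1 and Vamp2 share no exact run longer than 18 bases, and those of Cplx1 and Cplx2 none longer than 32 bases. No read of 50 bases within these sequences could thus match both genes of a pair exactly. Matches with mismatches were not searched.

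The complexins lay lower under the anti-miRs than in control, and only Cplx1 passed. Cplx1, at chr5:108518554-108550024 on the minus strand, had 567, 576, 573 and 547 CPM under anti-miR-409-5p, 561, 582, 582 and 559 CPM under anti-miR-501-3p, and 609 and 609 CPM in control. The log2 fold change was -0.11 ± 0.035 (adjusted p = 0.0289) under anti-miR-409-5p and -0.093 ± 0.035 (adjusted p = 0.0472) under anti-miR-501-3p. The groups did not overlap, but the fall was small. The anti-miR-409-5p call ended without a filter on low counts (adjusted p = 0.0848) and without control 1 (0.224), control 2 (0.14), anti-miR-409-5p 3 (0.0599) or 4 (0.0754), or anti-miR-501-3p 2 (0.0543). The anti-miR-501-3p call ended with DESeq2's size factors (0.0624), without the filter (0.137), in a fit of the 2 groups alone (0.0818), with DESeq2 (0.0572) and without control 1 (0.276), control 2 (0.18), anti-miR-409-5p 1 (0.0646), 2 (0.0823) or 3 (0.0744), or anti-miR-501-3p 1 (0.0835), 2 (0.0772), 3 (0.0553) or 4 (0.122), each as an adjusted p.

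Cplx2, the complexin of excitatory forebrain neurons, lies at chr13:54371349-54383917 on the plus strand and carries the miR-501-3p match. It had 1603, 1613, 1629 and 1630 CPM under anti-miR-409-5p, 1672, 1661, 1611 and 1650 CPM under anti-miR-501-3p, and 1731 and 1686 CPM in control. All anti-miR libraries lay below both controls. The log2 fold change was -0.078 ± 0.030 (adjusted p = 0.0634) under anti-miR-409-5p and -0.052 ± 0.030 (adjusted p = 0.209) under anti-miR-501-3p, so neither passed. Of the 50-base windows of the Cplx2 transcript, 2.07% also occur in transcripts of other genes.

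Of the priming and scaffold genes, Unc13a lay lower and Rims1 higher under the anti-miRs, and neither passed. Unc13a, at chr8:71624417-71671757 on the minus strand, had 502, 480, 479 and 493 CPM under anti-miR-409-5p, 516, 478, 477 and 497 CPM under anti-miR-501-3p, and 523 and 520 CPM in control. No anti-miR library reached the lower control, and the log2 fold changes were -0.095 ± 0.038 (SE, adjusted p = 0.0716) under anti-miR-409-5p and -0.084 ± 0.038 (adjusted p = 0.0997) under anti-miR-501-3p. With the replicate block both passed (adjusted p = 0.0222 and 0.0392), and without anti-miR-501-3p library 1 the second did (0.0298). Colgalt1, on the other strand, overlaps 3.92% of the exon bases of Unc13a, and since the library kit does not mark strand, reads there cannot be told apart.

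Rims1, at chr1:22286251-22805994 on the minus strand, had 183, 183, 194 and 198 CPM under anti-miR-409-5p, 180, 194, 191 and 195 CPM under anti-miR-501-3p, and 169 and 187 CPM in control. Control 2 lay among the anti-miR libraries and control 1 below them all. The log2 fold changes were 0.093 ± 0.049 (SE, adjusted p = 0.166) under anti-miR-409-5p and 0.097 ± 0.049 (adjusted p = 0.138) under anti-miR-501-3p. Both passed without control 2 (adjusted p = 0.0467 and 0.0354), and the anti-miR-501-3p value passed without anti-miR-501-3p library 1 (0.0417).

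Across the 8 genes, the anti-miR and control libraries did not overlap for 5 genes under anti-miR-409-5p and 6 under anti-miR-501-3p. Such separation was common, at 48.0% and 49.9% of all tested genes. In the authors' deposited table, 2 of the 8 genes, Snap25 and Stx1a, passed in each comparison. Over all genes listed there, 3601 of 17645 passed under anti-miR-409-5p and 4488 of 17722 under anti-miR-501-3p. Of the listed genes, 5137 and 4123 had no adjusted p. Cplx1 had adjusted p = 0.0734 under anti-miR-409-5p and 0.0807 under anti-miR-501-3p. The authors' deposited table gave Snap25 a log2 fold change of 0.324 under anti-miR-409-5p and 0.344 under anti-miR-501-3p, and Stx1a -0.22 under anti-miR-409-5p and -0.223 under anti-miR-501-3p.

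The order of the fold changes largely followed the GC content of the transcripts. Snap25, at 38.7% GC, had the highest fold change in both comparisons, and Stx1a, at 57.9%, the lowest. Spearman's rho of GC content with log2 fold change across the 8 genes was -0.976 under anti-miR-409-5p and -0.929 under anti-miR-501-3p, and across 16839 tested genes -0.693 and -0.699. These are descriptions across genes of the same libraries, and genes are not independent replicates. The libraries differed in the same property: the slope of a gene's log2 deviation from its mean over libraries on transcript GC content was -0.041 ± 0.068 per 10 percentage points under anti-miR-409-5p, -0.074 ± 0.058 under anti-miR-501-3p (SD, n = 4 each) and 0.23 ± 0.0465 in control (SD, n = 2). In each group the library of highest slope, library 1, had the lowest Snap25 level. The mitochondrial share of counts was 3.63% ± 0.17, 3.69% ± 0.268 and 2.68% ± 0.132 in these groups, and its part in the results was not tested.

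**Figure D2:**
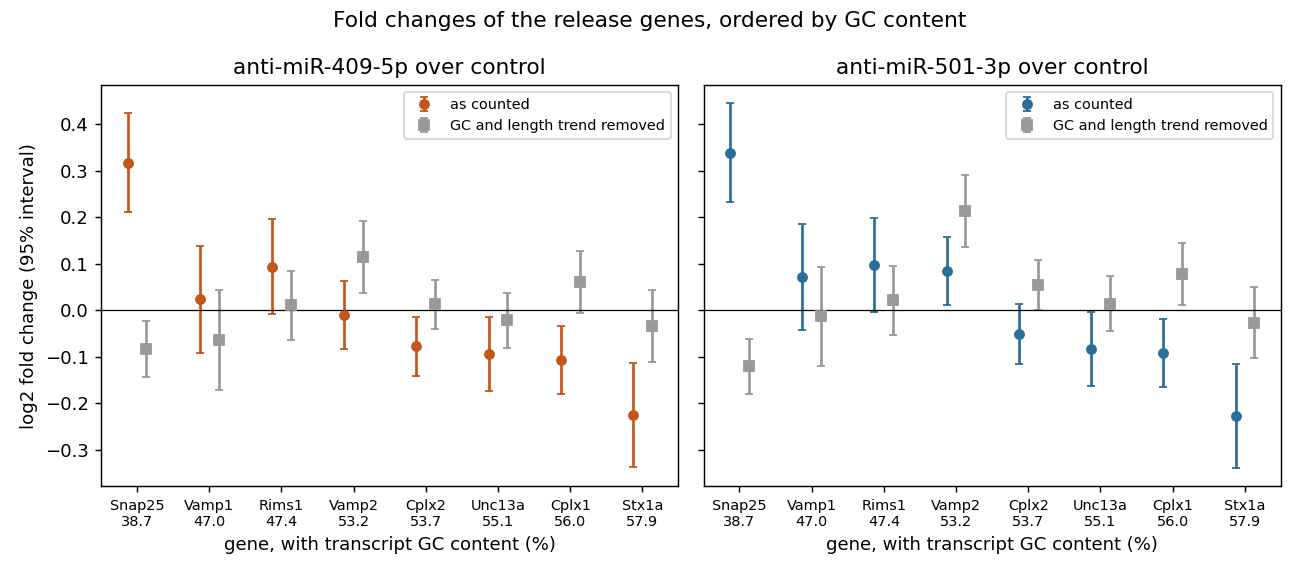
Log2 fold change against control (vertical axes) of each release gene, as measured and after removal of each library's trend on GC content and transcript length. The genes stand at equal steps in order of the GC content of their longest transcript, printed in percent (horizontal axes). As measured, Snap25 (38.7% GC) lies highest and Stx1a (57.9% GC) lowest in both comparisons, and the values between do not fall at every step. After removal Vamp2 lies highest and Snap25 lowest in both comparisons.

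With each library's trend on GC content and length removed, the changes of Stx1a, Cplx1 and Snap25 that had passed shrank or turned. Snap25 then did not pass under anti-miR-409-5p and was called lower under anti-miR-501-3p, at the values given with its levels (SE 0.029 each). Stx1a had -0.035 (adjusted p = 0.696) under anti-miR-409-5p and -0.028 (adjusted p = 0.732) under anti-miR-501-3p. Cplx1 had 0.059 (adjusted p = 0.331) under anti-miR-409-5p and 0.077 (adjusted p = 0.144) under anti-miR-501-3p. Vamp2 had 0.114 ± 0.037 (adjusted p = 0.0695) under anti-miR-409-5p and 0.213 ± 0.037 (adjusted p = 0.000779, a call as higher) under anti-miR-501-3p. In this fit 0 of 8 genes were called under anti-miR-409-5p, against 7.45% of all genes (3.99% higher, 3.46% lower). Under anti-miR-501-3p 2 of 8 were called, against 10.1% of all genes (5.50% higher, 4.61% lower). An unadjusted edgeR p under 0.05 was found for 2 of 8 genes under anti-miR-409-5p, beside 3271 of all 16884 tested genes. Under anti-miR-501-3p it was found for 4 of 8, beside 3751 of 16884. The fit takes out any difference that runs with GC content or length, whatever its source, and can bring in others.

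Between the anti-miRs, no release gene passed. The edgeR test called 0 of 8 genes and 0% of all 16884, with 992 genes and 1 of the 8, Vamp2, at an unadjusted p under 0.05, while DESeq2 called 3 genes and 0 of the 8. Vamp2 was lower under anti-miR-409-5p (1029 to 1106 CPM) than under anti-miR-501-3p (1122 to 1153 CPM), with a log2 fold change of -0.096 ± 0.029 (adjusted p = 0.741, 95% interval -0.156 to -0.035). It was the 1 gene of the 8 whose anti-miR groups did not overlap, as 3.47% of all genes did not. For the other 7 genes the 95% interval of this log2 fold change lay within -0.142 to 0.095, the widest bounds being those of Vamp1 and Stx1a. A single gene, 0.00592% of those tested and none of the 8, was called after removal of the GC and length trend. With the replicate number as a block, Vamp2 passed (log2 fold change -0.096, adjusted p = 0.00908).

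Ratios of 2 release genes within a library do not depend on library scaling. Stx1a to Snap25, the 2 plasma membrane SNAREs, had log2 count ratios of -2.13, -2.17, -2.41 and -2.41 under anti-miR-409-5p, -2.18, -2.30, -2.29 and -2.41 under anti-miR-501-3p, and -1.65 and -1.81 in control. All 8 anti-miR libraries lay below both controls. The mean differences from control were -0.55 for anti-miR-409-5p and -0.57 for anti-miR-501-3p, each with an exact two-sided permutation p = 0.067, the smallest that 4 against 2 libraries allow. Both anti-miRs together differed from control by -0.56 (exact permutation p = 0.0222, the smallest possible, adjusted p = 0.213 over 16 ratio tests). With so few libraries, no ratio could reach an adjusted p under 0.05 over these tests, whatever its values. The adjusted p therefore cannot decide whether a ratio changed. After removal of the GC and length trend the differences were 0.048 for anti-miR-409-5p, 0.093 for anti-miR-501-3p and 0.071 for both.

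Rims1 to Unc13a had log2 count ratios of -1.46, -1.39, -1.30 and -1.31 under anti-miR-409-5p, -1.52, -1.30, -1.32 and -1.35 under anti-miR-501-3p, and -1.63 and -1.48 in control. The ratio lay higher in the anti-miR-409-5p libraries than in both controls, whereas anti-miR-501-3p library 1 lay between the controls. Both anti-miRs together differed from control by 0.19 (exact permutation p = 0.0444, adjusted p = 0.213), and by 0.021 after removal of the trend. For the paralogs, Vamp1 to Vamp2 differed by 0.034, -0.015 and 0.0096 and Cplx1 to Cplx2 by -0.030, -0.042 and -0.036 for anti-miR-409-5p, anti-miR-501-3p and both against control, and the groups overlapped in all 6. After removal of the trend, Vamp1 to Vamp2 differed by -0.178, -0.228 and -0.203 in the same order. The last had an exact permutation p = 0.0444, not adjusted over tests. Cplx1 to Cplx2 then differed by 0.048, 0.023 and 0.035.

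**Figure D3:**
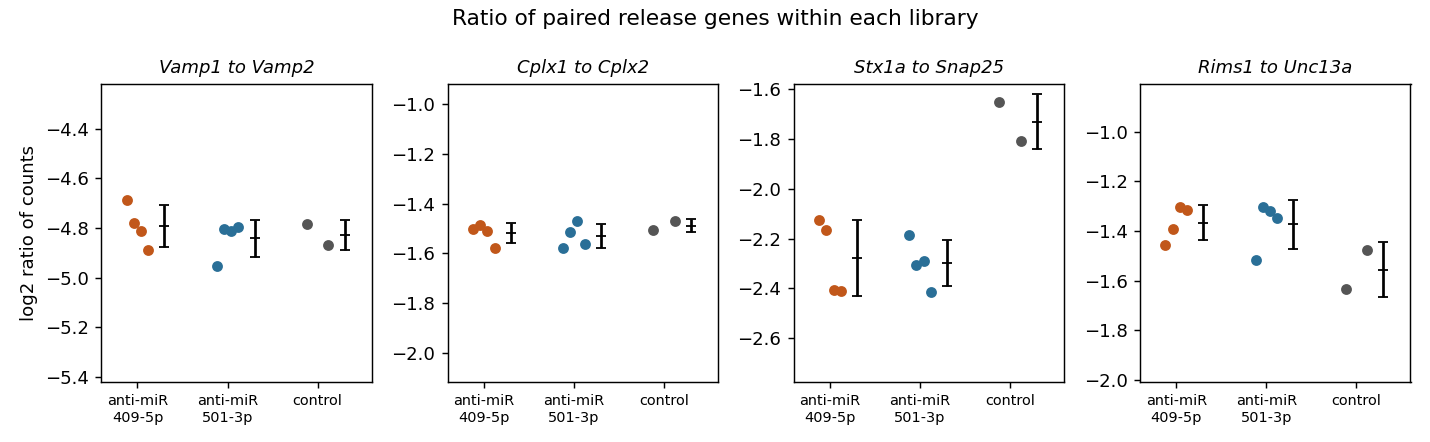
Log2 ratio of the counts of 2 release genes within each library (points), with group means and SD (bars), for anti-miR-409-5p (n = 4), anti-miR-501-3p (n = 4) and control (n = 2); the vertical axes differ in position but span the same range. Stx1a to Snap25 lies between -2.41 and -2.13 in the anti-miR libraries and at -1.65 and -1.81 in control, while the paralog ratios overlap.

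The rest of the release machinery was read from 4 lists with 59 other genes, of which 57 were tested. Their shares called are to be read beside the 27.8% under anti-miR-409-5p and 33.0% under anti-miR-501-3p of all tested genes. After removal of the GC and length trend, the shares of all tested genes to read beside were 7.45% and 10.1%. The totals without control 1 are the lowest given at the end for each comparison with control. With 1 surrogate variable in the fit, 1 SNARE and fusion gene, 0 priming genes, 0 scaffold genes and 1 vesicle gene passed in each comparison with control. That fit called 936 and 692 of all tested genes. In the list of SNARE and fusion genes, 5 of 11 tested genes rose and 3 fell under each anti-miR (72.7% called). The median log2 fold change was 0.11 under anti-miR-409-5p and 0.088 under anti-miR-501-3p, and 0.016 under anti-miR-409-5p and -0.0042 under anti-miR-501-3p after removal of the GC and length trend. Vamp4, a vesicle SNARE of the trans-Golgi network and endosomes, averaged 81.1 ± 6.35 CPM under anti-miR-409-5p, 84.8 ± 6.34 under anti-miR-501-3p (SD, n = 4 each) and 62.4 ± 3.19 in control (SD, n = 2), log2 fold changes of 0.38 and 0.44. Napg and Napb encode SNAP adaptors that help NSF take spent SNARE bundles apart. On the log2 scale Napg rose by 0.29 under anti-miR-409-5p and 0.36 under anti-miR-501-3p, and Napb by 0.18 under anti-miR-409-5p and 0.21 under anti-miR-501-3p. Without control 1 the count passing was 1 of 11 under anti-miR-409-5p and 3 of 11 under anti-miR-501-3p, and after removal of the GC and length trend it was 2 of 11 in each, Napg and Vamp4, both higher, while Napb no longer passed.

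Of 17 tested priming and release control genes, 3 rose and 3 fell under anti-miR-409-5p, and 2 rose and 4 fell under anti-miR-501-3p. That is 35.3% in each, near the share of all tested genes, with medians of -0.0068 under anti-miR-409-5p and -0.0018 under anti-miR-501-3p, and of -0.032 and 0.001 after removal of the trend. Stxbp6, which encodes the syntaxin-binding protein amisyn, averaged 37.1 ± 2.86, 37.5 ± 2.74 and 26.8 ± 4.29 CPM in the anti-miR-409-5p, anti-miR-501-3p and control groups, log2 fold changes of 0.47 and 0.48. Rph3a, which encodes the Rab3 effector rabphilin, fell by 0.16 under anti-miR-409-5p and by 0.23 under anti-miR-501-3p on the log2 scale. Rab3a, a small GTPase of synaptic vesicles, was called lower in both, with log2 fold changes of -0.111 under anti-miR-409-5p and -0.128 under anti-miR-501-3p. Fewer passed without control 1 in each comparison, and without control 2 under anti-miR-409-5p, as among all tested genes. After removal of the trend Stxbp6 was the 1 gene called in each comparison, and Rph3a and Rab3a no longer passed.

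Of 13 active zone scaffold genes, 2 rose and 5 fell under each anti-miR (53.8%). The median was -0.050 under anti-miR-409-5p and -0.092 under anti-miR-501-3p, and -0.019 under anti-miR-409-5p and 0.022 under anti-miR-501-3p after removal of the trend. Erc2, which encodes a large coiled-coil scaffold, rose by 0.20 under anti-miR-409-5p and by 0.23 under anti-miR-501-3p on the log2 scale. Ppfia2, Ppfia3 and Ppfia4 encode liprins, which organise the active zone. Ppfia3 fell by 0.21 under anti-miR-409-5p and by 0.20 under anti-miR-501-3p, and Ppfia4 fell by 0.22 under anti-miR-409-5p. Ppfia4 was also called lower under anti-miR-501-3p, at -0.134. Ppfia2 rose by 0.16 under anti-miR-409-5p and 0.19 under anti-miR-501-3p. After removal of the trend, anti-miR-409-5p left 1 of 13 called, as lower, and anti-miR-501-3p left 2, of which 1 was higher. Ppfia2, at 40.7% GC, was the gene called lower in each, at -0.171 (edgeR, adjusted p = 0.00159) under anti-miR-409-5p and -0.17 (adjusted p = 0.00118) under anti-miR-501-3p. Erc2 remained called higher under anti-miR-501-3p (0.123, adjusted p = 0.0108) and did not pass under anti-miR-409-5p (0.098, adjusted p = 0.0575), and Ppfia3 and Ppfia4 no longer passed. Fewer passed in each comparison without either control library, as among all tested genes. Without anti-miR-409-5p library 3 the anti-miR-409-5p count was 4 of 13, where 3411 of all tested genes were called.

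Of 16 synaptic vesicle genes, 3 rose and 5 fell under anti-miR-409-5p, and 4 rose and 6 fell under anti-miR-501-3p, which is 50% under anti-miR-409-5p and 62.5% under anti-miR-501-3p. The median was -0.073 under anti-miR-409-5p and -0.071 under anti-miR-501-3p, and turned to 0.017 under anti-miR-409-5p and 0.048 under anti-miR-501-3p after removal of the trend. Slc17a7, the vesicular glutamate transporter of hippocampal excitatory neurons, averaged 1046 ± 42.3 CPM under anti-miR-409-5p, 1038 ± 40.8 under anti-miR-501-3p (SD, n = 4 each) and 1201 ± 31 in control (SD, n = 2), log2 fold changes of -0.20 and -0.21. Synpr, which encodes the vesicle protein synaptoporin, rose by 0.37 under anti-miR-409-5p and 0.50 under anti-miR-501-3p, and Sv2b, a vesicle glycoprotein gene, by 0.18 under anti-miR-409-5p and 0.18 under anti-miR-501-3p. After removal of the trend Synpr had -0.011 (adjusted p = 0.941) under anti-miR-409-5p and 0.061 (adjusted p = 0.465) under anti-miR-501-3p, and Slc17a7 had -0.055 (adjusted p = 0.271) and -0.053 (adjusted p = 0.259). The genes then called were Sv2b (higher) and Syp (lower) in each comparison, with Syt1 (higher) under anti-miR-501-3p; Syp and Syt1 are named after their values were seen. Without control 1 the counts were 2 under anti-miR-409-5p and 3 under anti-miR-501-3p of 16. No gene of the 4 lists passed between the anti-miRs.

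Risers and fallers of the 4 lists differed in GC content, as among all genes. Under anti-miR-409-5p the 13 risers had a median GC content of 44.2% (38.9 to 46.8), the 28 that did not pass 49.3% and the 16 fallers 56.4% (45.4 to 60.9). Under anti-miR-501-3p the medians were 44.2% for 13 risers, 49% for 26 that did not pass and 56.4% for 18 fallers. Among all tested genes under anti-miR-409-5p the medians were 42.3%, 49.9% and 56.6%.

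**Figure D4:**
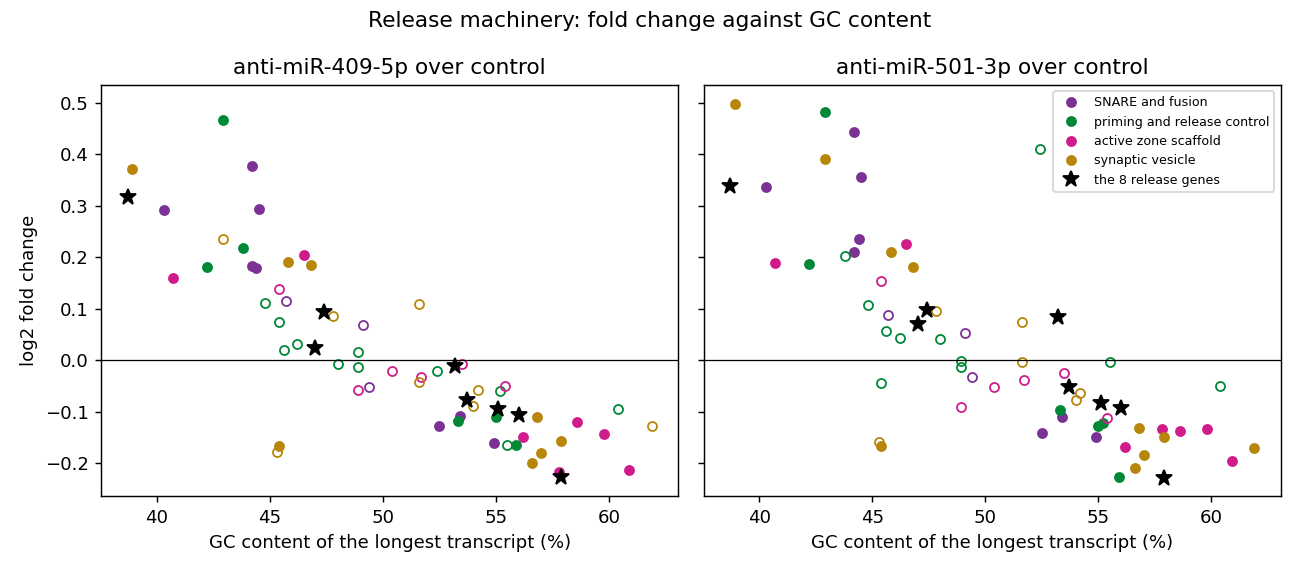
Log2 fold change against control (vertical axes) of the 57 tested genes of the 4 wider release lists against transcript GC content in percent (horizontal axes), with genes past the threshold marked and a panel for each anti-miR. Genes that rose lie between 38.9% and 46.8% GC in both panels, and genes that fell have a median of 56.4% GC in both.

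By level over the 10 libraries, the genes most like Snap25 among 10261 compared were Ubn2 and Actr2 (Pearson's r of log2 CPM 0.997 each). For Stx1a Dalrd3 (0.982) was first, for Vamp2 they were Gng4 (0.957) and Higd1a (0.93), and for Vamp1 Ccdc28a (0.947) and Tmem126b (0.881). For Cplx1 they were Yipf1 (0.97) and Diras1 (0.96), for Cplx2 Rexo2 (0.942) and Mbtps1 (0.928), for Unc13a Arhgef17 (0.967) and Rab11fip3 (0.955), and for Rims1 Cask (0.971) and Cspp1 (0.952). No release gene was among the 2 genes most like another. Within the 8, Snap25 ran with Rims1 (r = 0.846) and against Unc13a (r = -0.851) and Stx1a (r = -0.832), and Stx1a ran with Cplx1 (r = 0.877). These values are descriptions that include the difference between groups and the shared GC slope of each library.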

How the data were processed

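Gene counts of 10 libraries were used as deposited by the authors, 1 table of raw counts per library, with no normalization. Per the labels' protocols, reads were single-end, 50 bp long, and came from TruSeq v2 libraries. The tools were STAR 2.5.2b and, from Subread 1.5.1, featureCounts, with FastQC 0.11.5 and build mm10, per the submitters' processing notes; the annotation release, the strand setting and the treatment of reads with several positions are not given in the sources used here. The authors also deposited log2 fold changes, p-values and a normalized signal per library for each anti-miR against control, per the file headers, and these were used for the authors' calls alone. Every per-sample column could be assigned to a library.

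Libraries had 22254788 to 32096808 counts. With R 4.3.3, genes were filtered by filterByExpr (16884 of 48709), scaled by TMM and tested with edgeR 4.0.16 (robust quasi-likelihood, two-sided, 10 libraries, 3 groups, no covariate, Benjamini-Hochberg adjusted p of 0.05 over all tested genes, prior count of 2 for log2 CPM). The shared estimate of spread serves the 2 control libraries. Nothing in the labels says that libraries came from separate cultures, so p-values measure the spread between libraries, which may be technical. The counts of replicate libraries differed by more than sampling noise in every pair. Ratios were tested by exact permutation of libraries. Gene models, 3′ UTRs and GC content were from GENCODE's mm10 annotation, and levels per kb used the union of exons. The GC and length trend was fitted per library with splines of 5 degrees of freedom on genes above a mean log2 CPM of 1 and entered as an offset. Both values were at hand for 99.7% of tested genes. Alternatives were other scalings, no filter, DESeq2 1.42.0, a replicate block, 1 surrogate variable (sva 3.50.0), fits of the compared groups alone and leaving out each library. The edgeR step was tested on simulated counts. The 8 genes, the lists and the rules were chosen with earlier results of these data known. Named besides the 8 genes are up to 3 genes of smallest p per list and comparison with control, and the 2 genes most like each member with a mean log2 CPM of at least 3. Some genes that these rules took are not reported here.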

Additional observations from a re-analysis of the deposited data

Results flagged for a closer look

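A total of 3 values of a single library lay far from the other 3 of its group. The check asked whether the gap between the highest or lowest library and its nearest neighbour took up most of the group's range. Snap25 had 951.7 CPM in anti-miR-501-3p library 1, below the other libraries of that group at 1057 to 1065 CPM and above both controls. Vamp1 had 37 CPM in the same library, against 40.4 to 41.0 CPM in the others. The log2 ratio of Vamp1 to Vamp2 was -4.95 there, against -4.81 to -4.80 in the others. The check was made on 24 groups of 4 libraries and chance marks about 1 in 20. These groups share libraries, and the ratio uses the same Vamp1 count, so the checks are not independent. All 3 values belong to library 1, which also had the highest GC slope of its group (0.0085 per 10 percentage points, against -0.13 to -0.085 in the others). The part of the GC slope in these values was not tested.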

How the results depend on the processing

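The replicate numbers were not taken to pair libraries: deviations of same-numbered libraries correlated at 0.028 to 0.174, not all over 0.1, although in the 4 anti-miR pairs each library correlated best with its own number. Results are given for anti-miR-409-5p against control, anti-miR-501-3p against control, and anti-miR-409-5p against anti-miR-501-3p, called first, second and direct here. Genes called were 936, 692 and 11 with 1 surrogate variable, 1258, 1707 and 1 with the GC and length trend removed, 1297, 1834 and 189 with that removal and the replicate block, and 252 direct with the block alone. Direct calls were 42 without a filter, 1 in a fit of the 2 groups and 3 with DESeq2. Release genes called were 5 and 5 with upper-quartile scaling, total-count scaling and the replicate block, 1 and 1 with the surrogate variable, 0 in the first comparison with the trend removed (with or without the block), and 1 direct with the block (with or without the removal). Leaving out 1 library at a time gave 1302 to 5111, 1800 to 6075 and 0 to 1 genes called and 1 to 3, 1 to 4 and 0 to 0 release genes, the lowest first and second values being those without control 1. The causes were not tested.

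These log2 fold changes changed sign. With the trend removed, first comparison, Snap25 had -0.084, Vamp1 -0.065, Vamp2 0.114, Cplx1 0.059 and Cplx2 0.012, and with the block added -0.067, -0.055, 0.079, 0.037 and no change of sign for Cplx2, with Rims1 at -0.014. In the second, Snap25 had -0.121, Vamp1 -0.014, Cplx1 0.077, Cplx2 0.055 and Unc13a 0.014, and with the replicate block added -0.104, -0.0036, 0.055, 0.043 and 0.011, with Rims1 at -0.0024. In the direct comparison Snap25 had 0.037 and Stx1a -0.0069, and with the block 0.037 and -0.0063. The surrogate variable gave Vamp1 -0.00079 and Rims1 -0.033 in the first, Rims1 -0.062 in the second, and Snap25 0.017, Stx1a -0.028 and Rims1 0.028 in the direct comparison. Upper-quartile and total-count scaling gave Vamp1 -0.017 and -0.021 in the first, and total-count scaling gave Rims1 0.000596 in the direct comparison. Leaving out 1 library, Vamp2 ranged from -0.030 to 0.03 in the first, and in the direct comparison Snap25 ranged from -0.057 to 0.00037, Stx1a from -0.028 to 0.033, Cplx1 from -0.023 to 0.0020, Unc13a from -0.025 to 0.015 and Rims1 from -0.027 to 0.013.

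For the log2 ratios with the trend removed, Vamp1 to Vamp2 differed by -0.178 in the first comparison and -0.203 for both anti-miRs against control, Cplx1 to Cplx2 by 0.048, 0.023 and 0.035 (first, second, both), and Stx1a to Snap25 by 0.048, 0.093 and 0.071, and by -0.044 direct. Rims1 to Unc13a, both against control, differed by 0.021 and no longer passed at the unadjusted p. Leaving out 1 library, Vamp1 to Vamp2 ranged from -0.0089 to 0.078 (first), -0.058 to 0.028 (second) and -0.034 to 0.053 (both), Cplx1 to Cplx2 from -0.0031 to 0.032 (direct), Stx1a to Snap25 from -0.636 to -0.479 (both) and -0.030 to 0.064 (direct), and Rims1 to Unc13a from 0.109 to 0.264 (both) and -0.042 to 0.036 (direct). The last 2 against control lost p under 0.05 without either control library, where 8 against 1 libraries cannot reach it (smallest exact p 0.111), and Rims1 to Unc13a also did without any single anti-miR library other than anti-miR-501-3p 1 (exact p = 0.0556).

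Each of the 8 genes had at least 867 counts in every library, and control has 2 libraries, the number that limits each comparison with it.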
